A study of Drosophila melanogaster with 2 samples.

Results

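The 10 genes described here are the core of the ecdysone cascade as listed for this work. They are the receptor pair EcR and usp and the early response genes br, Eip74EF and Eip75B. The others are the nuclear receptor genes Eip78C, Hr4, Hr39 and ftz-f1, and Eip93F. The 10 are among 13945 protein-coding genes on the 6 main chromosome arms. The measurement is ChIP-seq of Abd-B, the Hox protein of the posterior abdomen, in 1 group of 2 biological replicates with no second group. Each replicate was whole Drosophila melanogaster embryos, 4 to 20 h old, of the strain Abd-B-GFP, in which GFP is fused to the C-terminus of Abd-B, and the precipitation used an antibody against GFP, per the label's description. The antibody label itself names Abd-B, so the labels differ on what was precipitated. The age is from the source label, since the age label gives no usable value. The labels describe an insertion targeting Abd-B. Whole embryos hold every tissue, so a peak does not tell in which cells the protein sat. For each gene the window was the gene body with 10 kb on either side, and the summits (the highest base of each peak) in this window were read from 4 deposited peak lists. They are the list selected by IDR (irreproducible discovery rate), the pooled list, and the list of each replicate. The IDR list here equals the 5033 strongest peaks of the pooled list. A peak's rank is by the authors' signal value, with rank 1 the strongest. The labels give neither the promoter that drives the fusion nor the sex of the embryos, and no untagged sample was analysed here. In whole embryos, few cells with much binding and many cells with little cannot be told apart.

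Ecdysone is the steroid hormone that times moulting, metamorphosis and, in the embryo, movements such as germ band retraction and head involution. It binds a heterodimer of EcR and Ultraspiracle, which switches on early genes that encode transcription factors, and these in turn control later genes. Many of the factors are themselves nuclear receptors and many of the genes use several promoters, so which promoter carries a peak can differ from gene to gene.

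All 10 genes had at least 1 IDR summit in their window, where 64.8% of all protein-coding genes did. The windows of these genes are long, with a median of 83.1 kb against 22.2 kb for all protein-coding genes. Among the genes with a window over 50 kb, the count was 8 of 8 of the ecdysone genes and 78.6% of all 663 such genes. The 10 windows cover 793.3 kb and held 47 IDR summits, a density of 5.92 per 100 kb beside 3.76 per 100 kb over the main arms. The arms include DNA outside gene windows, so the 2 densities are not of like regions. For scale, 35.4% of all protein-coding genes had a window at least as dense as that of Eip75B (5.98 per 100 kb). Among windows over 50 kb it was 21.7%. Hr4 with 12 summits, ftz-f1 with 9 and Eip75B with 8 together held 29 of the 47. The other windows held 5 at Eip74EF, 3 each at EcR and Eip78C, 2 each at usp, br and Eip93F, and 1 at Hr39. The median count was 3 per gene beside 1 for all protein-coding genes, and 4 beside 2 among windows over 50 kb.

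Few of these summits were at promoters of the ecdysone genes themselves. Within 1 kb of one of their own transcription start sites (TSSs) lay 4 summits, at EcR, usp, Eip75B and Hr39, so that 4 of 10 genes had a promoter summit beside 25.0% of all protein-coding genes. Among genes with a window over 50 kb it was 2 of 8, EcR and Eip75B, beside 36.7%. Another 34 summits lay in introns of the ecdysone genes, and 9 lay within 500 bp of a TSS of a neighbouring gene. None lay in coding sequence or a UTR more than 500 bp from a TSS. None lay between genes more than 500 bp from a TSS, beside 15.1% of all IDR summits. Some of the summits within 500 bp of a TSS do lie between genes. The windows are drawn around genes, so the choice of window itself shapes the balance of introns and intergenic DNA. Introns held 72.3% of the 47 summits (95% Wilson interval 58.2 to 83.1%) and 34.5% of all 5033 IDR summits. The difference was not tested. For 27 of the 47 the nearest TSS of any gene was that of the ecdysone gene itself.

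**Figure D1:**
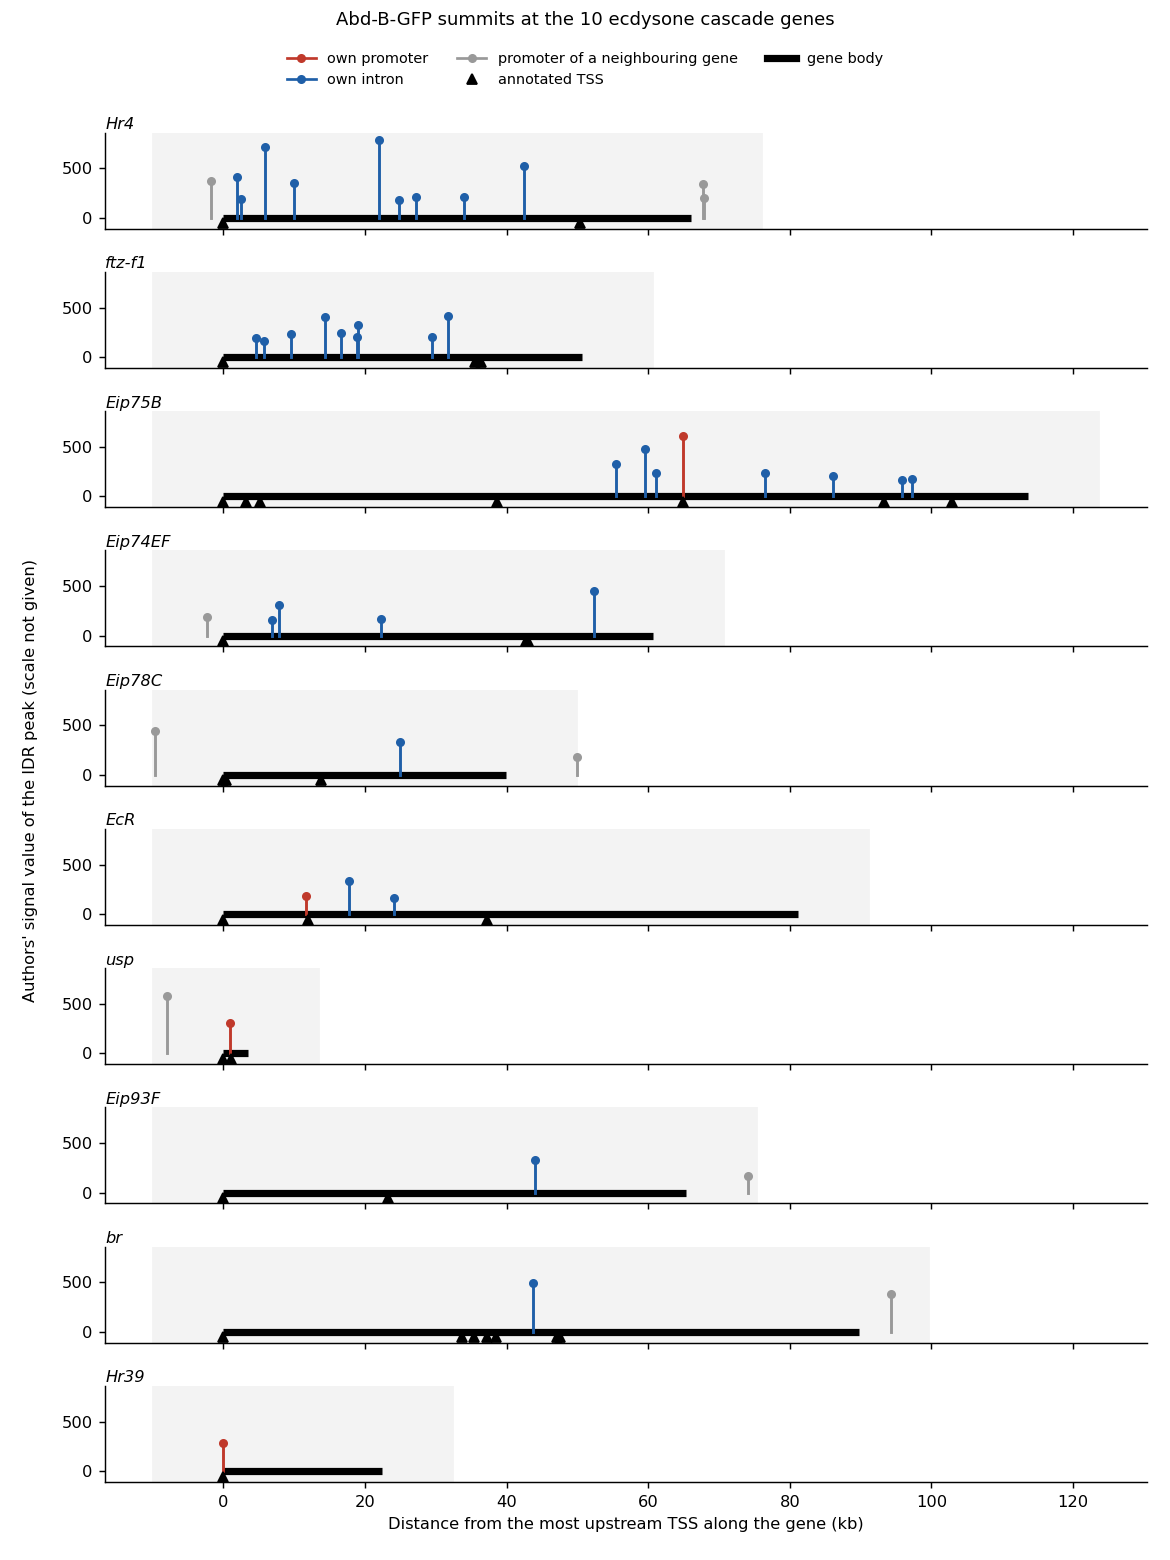
Positions of the 47 IDR summits at the 10 genes. The x axis is the distance in kb from the most upstream TSS along the gene, the y axis is the authors' signal value of the peak, grey shading is the window, black bars are gene bodies, triangles are TSSs, and colours give the kind of place. Summits at an own promoter appear at 4 genes, and the introns of Hr4 and ftz-f1 hold 9 summits each.

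The sequences under the summits that the account turns on are given first: those at the promoters of Hr39, Eip75B and usp, then the strongest intronic summit of Hr4, ftz-f1, Eip74EF, br, Eip78C and Eip93F. Hr4 and ftz-f1, which held the most summits, have a further one each. For Hr4 it is the next intronic summit by rank. For ftz-f1 it is rank 1811, a chosen example and not the next by rank. The next, rank 1257, is not shown and holds TAATTA but no Abd-B motif. Also not shown are the EcR promoter summit, rank 4021, which holds the Abd-B motif, and the intronic summits of EcR and Eip75B. Each run is 201 bases of the RefSeq sequence, dm6 coordinates, on the strand of the gene and 5′ to 3′, with the summit at base 101. Capitals mark TTTATTG or TTTATGG, the forms of the Abd-B motif searched, TAATTA, the homeodomain core, and AAGGTCA, the site type bound by FTZ-F1. Each was searched on both strands, so that CAATAAA in capitals is TTTATTG read from the other strand. In all, 19 of the 47 summits (40.4%) hold the Abd-B motif, TAATTA or both, beside 34.9% of all IDR summits, and 28 hold neither.
Hr39 rank 2174, chr2L:21237029-21237229, plus strand: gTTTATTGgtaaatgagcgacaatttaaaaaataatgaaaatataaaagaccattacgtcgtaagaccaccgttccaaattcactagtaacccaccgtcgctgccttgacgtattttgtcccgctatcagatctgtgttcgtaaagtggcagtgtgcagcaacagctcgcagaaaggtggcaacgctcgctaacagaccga
Eip75B rank 594, chr3L:17999717-17999917, minus strand: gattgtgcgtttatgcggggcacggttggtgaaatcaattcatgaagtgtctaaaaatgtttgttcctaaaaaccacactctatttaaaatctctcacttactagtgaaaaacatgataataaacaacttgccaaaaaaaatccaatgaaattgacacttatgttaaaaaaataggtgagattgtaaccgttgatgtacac
usp rank 1940, chrX:2041319-2041519, minus strand: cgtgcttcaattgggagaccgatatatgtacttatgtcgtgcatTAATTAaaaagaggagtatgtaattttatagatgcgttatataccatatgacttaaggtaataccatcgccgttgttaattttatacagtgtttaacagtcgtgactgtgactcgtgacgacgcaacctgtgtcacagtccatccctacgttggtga
Hr4 rank 356, chrX:1963847-1964047, plus strand: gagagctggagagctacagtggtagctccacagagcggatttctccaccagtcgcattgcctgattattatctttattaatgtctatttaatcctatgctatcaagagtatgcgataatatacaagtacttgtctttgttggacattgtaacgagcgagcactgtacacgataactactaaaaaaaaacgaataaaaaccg
Hr4 rank 437, chrX:1947657-1947857, plus strand: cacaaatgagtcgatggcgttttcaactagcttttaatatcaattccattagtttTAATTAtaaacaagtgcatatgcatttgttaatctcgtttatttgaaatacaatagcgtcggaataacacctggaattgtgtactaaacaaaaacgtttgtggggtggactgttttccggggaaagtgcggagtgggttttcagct
ftz-f1 rank 1208, chr3L:18769488-18769688, minus strand: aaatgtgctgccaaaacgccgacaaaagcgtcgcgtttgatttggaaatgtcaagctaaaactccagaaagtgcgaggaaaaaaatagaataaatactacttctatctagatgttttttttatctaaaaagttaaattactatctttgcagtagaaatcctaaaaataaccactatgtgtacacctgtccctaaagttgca
ftz-f1 rank 1811, chr3L:18782145-18782345, minus strand: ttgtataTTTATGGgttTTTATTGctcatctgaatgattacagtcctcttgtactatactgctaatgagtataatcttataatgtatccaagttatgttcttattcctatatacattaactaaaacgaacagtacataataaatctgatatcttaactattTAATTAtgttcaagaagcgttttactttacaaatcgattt
Eip74EF rank 1051, chr3L:17566945-17567145, minus strand: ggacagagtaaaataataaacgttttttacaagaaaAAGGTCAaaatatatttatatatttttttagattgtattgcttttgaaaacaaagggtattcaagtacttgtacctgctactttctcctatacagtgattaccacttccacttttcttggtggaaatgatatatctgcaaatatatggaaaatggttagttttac
br rank 891, chrX:1618773-1618973, plus strand: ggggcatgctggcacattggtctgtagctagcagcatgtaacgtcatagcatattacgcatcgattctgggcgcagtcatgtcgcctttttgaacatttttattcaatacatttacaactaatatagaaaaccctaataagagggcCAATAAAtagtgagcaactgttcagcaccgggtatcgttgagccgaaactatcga
Eip78C rank 1717, chr3L:21251513-21251713, plus strand: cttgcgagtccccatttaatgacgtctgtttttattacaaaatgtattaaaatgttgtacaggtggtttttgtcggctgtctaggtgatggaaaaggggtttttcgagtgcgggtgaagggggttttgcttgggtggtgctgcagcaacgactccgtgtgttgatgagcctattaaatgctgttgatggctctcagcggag
Eip93F rank 1725, chr3R:21992998-21993198, plus strand: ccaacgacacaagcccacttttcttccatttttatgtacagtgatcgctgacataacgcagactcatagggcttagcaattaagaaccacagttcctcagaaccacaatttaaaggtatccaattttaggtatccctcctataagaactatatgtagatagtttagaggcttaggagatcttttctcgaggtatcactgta

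Some of these sequences hold several marked words and others none. The ftz-f1 sequence of rank 1811 holds both forms of the Abd-B motif and the homeodomain core, and the Hr39 and br sequences hold the Abd-B motif once each. The strongest summit of the set, Hr4 rank 356, holds none of the marked words. Neither do the strongest intronic summits of ftz-f1, Eip78C and Eip93F or the Eip75B promoter summit. The Eip74EF sequence of rank 1051 holds AAGGTCA and, unmarked, CAGGTA, the word bound by Zelda.

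Of the receptor genes, EcR (FBgn0000546) is the hormone-binding partner. It spans 6087873 to 6169087 on the minus strand of 2R (dm6) and had 3 IDR summits, all inside the gene and all in the list of each replicate. The EcR transcripts start at 3 places, and the 1 promoter with a summit was that of EcR-RD and EcR-RE, 11.958 kb inside the gene. That summit, at 6157429, lay 300 bp upstream of the TSS and was weak: rank 4021 of 5033, rank 4983 in replicate 1 and rank 4276 in replicate 2. The strongest EcR summit, at 6151344, had rank 1736, with ranks 1973 in replicate 1 and 1874 in replicate 2. It lay in an intron 5785 bp downstream of the EcR-RD TSS, and its nearest TSS of any gene was that of a transfer RNA gene, tRNA:Asn-GTT-1-1, at 1332 bp. The third, at 6144935, had rank 4678. The distal EcR-RA promoter had no summit within 1 kb in any of the 4 lists. At the promoter of EcR-RB, EcR-RC and EcR-RG the pooled list held a summit 37 bp upstream, at rank 20276 of 29999, which is far below the IDR list.

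Ultraspiracle, the partner of EcR and the fly member of the RXR family, is encoded by usp (FBgn0003964), a short gene of 3.5 kb at 2038798 to 2042311 on the minus strand of X. A summit at 2041419 lay 107 bp upstream of the TSS of usp-RA and 892 bp downstream of that of usp-RB, so it counts for both usp promoters. It was at rank 1940, with ranks 2321 in replicate 1 and 1856 in replicate 2, and the gene Actn also covers this base. The higher ranked usp summit, rank 637 at 2050283, was 7972 bp upstream of usp and 163 bp upstream of moody, which encodes a G protein-coupled receptor of the glia of the blood-brain barrier. It ranked higher in replicate 1 (rank 300) than in replicate 2 (rank 1009).

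Among the early genes, Eip75B (FBgn0000568), which encodes a nuclear receptor that binds haem, had the summit closest to an own TSS. The gene spans 17950953 to 18064696 on the minus strand of 3L and its transcripts start at 7 places. The summit at 17999817 lay 4 bp downstream of the TSS of Eip75B-RC, at rank 594. Its signal value was 183.8 in replicate 1 (rank 769) and 425.1 in replicate 2 (rank 537). Signal values run higher in the replicate 2 list than in the replicate 1 list for nearly every summit here, so ranks and not signal values are compared between replicates. None of the other 6 Eip75B promoters had an IDR summit within 1 kb. The promoter of Eip75B-RA had a summit in every other list at 3 to 35 bp downstream, at rank 7124 in the pooled list, 6202 in replicate 1 and 10361 in replicate 2. The other 7 IDR summits were intronic and all 8 lay from 55.481 to 97.255 kb downstream of the most distal TSS of this gene of 113.7 kb. Next in strength was rank 954 at 18005207, 5386 bp upstream of the Eip75B-RC TSS, with ranks 1691 in replicate 1 and 741 in replicate 2. All 8 had a partner in both replicates, but the replicates placed some of them far apart: the summit of rank 3545 was at 9217 in replicate 1 and 2982 in replicate 2, and that of rank 4548 was at 2211 in replicate 1 and 10163 in replicate 2.

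Eip74EF (FBgn0000567) encodes an ETS domain factor. It spans 17558672 to 17619325 on the minus strand of 3L, with 3 promoters, and none had an IDR summit within 1 kb. Its strongest summit, rank 1051 at 17567045, lay in an intron 9275 bp downstream of the Eip74EF-RD TSS. The TSS of CycT was slightly nearer, at 9257 bp. This summit had rank 1603 in replicate 1 and rank 920 in replicate 2. A pair of summits 932 bp apart, ranks 1984 and 4871, lay 7840 and 6908 bp downstream of the distal TSS, in the first intron of the long transcripts. The fifth, rank 3875, was at the promoter of Vps60, a gene of the ESCRT machinery, 30 bp upstream of its TSS. Eip74EF had 2 summits without a partner in replicate 2, those of ranks 3875 and 4515, and the count of 5 was 2 when the 5033 strongest replicate 2 peaks were used in place of the IDR list.

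The gene br, for broad (FBgn0283451), encodes BTB zinc finger proteins that direct pupal development. It spans 1575132 to 1664869 on the plus strand of X and has 16 transcripts from 7 promoters, of which none had an IDR summit within 1 kb. The only summit inside it, rank 891 at 1618873, was in an intron 3435 bp upstream of br-RS and 718 bp upstream of a TSS of Mur2B, a gene inside br that also covers this base. Its signal value was 146.4 in replicate 1 (rank 1176) and 344.8 in replicate 2 (rank 810). The other, rank 1390, was 112 bp upstream of CG3740, beyond the 3′ end of br. The pooled list had a single summit within 1 kb of a br promoter, at rank 20290 and 121 bp downstream of the TSS of br-RC.

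Eip78C (FBgn0004865) encodes another nuclear receptor and spans 21226609 to 21266503 on the plus strand of 3L. Its 3 summits were rank 1054 at the promoter of Ilk, the integrin-linked kinase gene, rank 1717 in an Eip78C intron, and rank 4028 at the promoter of AcCoAS, the acetyl-CoA synthase gene. The first lies 9711 bp upstream of Eip78C, close to the edge of the window. The summit of rank 4028, at 21276497, is closer still to an edge, since the window ends at 21276503. The intronic one, at 21251613, was 11266 bp downstream of the Eip78C-RB TSS and had ranks 1499 in replicate 1 and 1903 in replicate 2. Its nearest TSS of any gene was that of CG43218, at 6407 bp. With windows of 5 kb, only this 1 intronic summit was left.

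Hr4 (FBgn0264562) had the most summits of the 10 genes and the strongest. It encodes a nuclear receptor that acts between the early genes and later ones, and it spans 1941940 to 2007956 on the plus strand of X. Of its 12 summits, 9 lay in its introns, 1 at the promoter of CG3857 and 2 at the promoters of PIG-K and lncRNA:CR45478 beyond its 3′ end, 202 bp apart. The strongest, rank 356 at 1963947, lay 22007 bp downstream of the distal TSS, with a signal value of 303.1 and rank 259 in replicate 1, and 496 and rank 391 in replicate 2. For this summit the nearest TSS of any gene was that of the pseudogene CR46447, at 9467 bp. The next, rank 437 at 1947757, lay 5817 bp downstream of the distal TSS and had ranks 438 in replicate 1 and 448 in replicate 2. A further intronic summit, rank 788 at 1984340, lay 7960 bp upstream of the second promoter, that of Hr4-RE and Hr4-RF, and had ranks 1159 in replicate 1 and 646 in replicate 2. Neither Hr4 promoter had an IDR summit within 1 kb. The summits were a median of 3668 bp apart. As many summits in the window occurred in 12 of 13945 genes and in 12 of the 663 with windows over 50 kb. By density 1232 of all genes (8.83%) and 13 of the 663 (1.96%) reached that of Hr4. These counts include Hr4. The summit of rank 1654, near PIG-K, had no partner in replicate 1.

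The ftz-f1 gene (FBgn0001078) encodes a nuclear receptor that gives later tissues competence to respond to ecdysone and that is also the cofactor of the pair-rule protein Ftz. It spans 18750607 to 18801309 on the minus strand of 3L. All 9 IDR summits lay inside it, between the TSS of the long transcript ftz-f1-RB and the start of the short ones, 4.621 to 31.721 kb from the distal TSS. They are thus in an intron of ftz-f1-RB and upstream of ftz-f1-RC, ftz-f1-RD and ftz-f1-RA, and 7 of the 9 also lie inside the noncoding gene lncRNA:CR45939. The strongest were rank 1208 at 18769588, 3844 bp upstream of the ftz-f1-RC promoter, and rank 1257 at 18786973. The first had ranks 1466 in replicate 1 and 1164 in replicate 2, and the second had ranks 1653 in replicate 1 and 1172 in replicate 2. The summits of ranks 1811 and 3424 were 205 bp apart, and their peaks overlap. A count of 9 or more occurred in 42 of all protein-coding genes and in 29 of the 663 with windows over 50 kb (4.37%). By density 1771 of all genes (12.7%) and 23 of the 663 (3.47%) reached that of ftz-f1.

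At the promoter of ftz-f1-RC and ftz-f1-RD no IDR summit lay within 1 kb, but the replicates differed there. A summit 645 bp upstream of it had rank 4777 in replicate 2, within the 5033 strongest, while in replicate 1 the one 673 bp upstream had rank 15396. In the pooled list it was at rank 5461 (−log10 q of 1.82), just below the IDR list. In the replicate 1 list an intronic ftz-f1 summit at 18786288 had rank 2890, and its partner in replicate 2 was at rank 6285. The pooled summit there, rank 5194, is not in the IDR list.

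Hr39 (FBgn0261239) encodes a nuclear receptor related to FTZ-F1 and spans 21237250 to 21259675 on the plus strand of 2L. Its 4 transcripts share 1 promoter, and the single summit of the window, at 21237129, lay 121 bp upstream of that TSS. It was at rank 2174, with ranks 1908 in replicate 1 and 2786 in replicate 2, and no other summit lay in the window in the pooled list or in replicate 2.

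Eip93F (FBgn0264490) encodes E93, a factor of the pupal to adult transition and of hormone-driven cell death. It spans 21949114 to 22014539 on the plus strand of 3R. Neither of its 2 promoters had an IDR summit within 1 kb, and a single intronic summit at 21993098, 20719 bp downstream of the TSS of Eip93F-RA, had rank 1725, with ranks 2011 in replicate 1 and 1687 in replicate 2. The second summit of the window, rank 4555, was 130 bp downstream of the TSS of Mitofilin, a gene of the mitochondrial inner membrane, and had no partner in replicate 2. The replicate 2 list held instead a summit of rank 4030 at 22023385, within 500 bp of it and also at a promoter. A replicate 1 summit of rank 2604 at 22019269 had no partner in replicate 2.

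**Figure D2:**
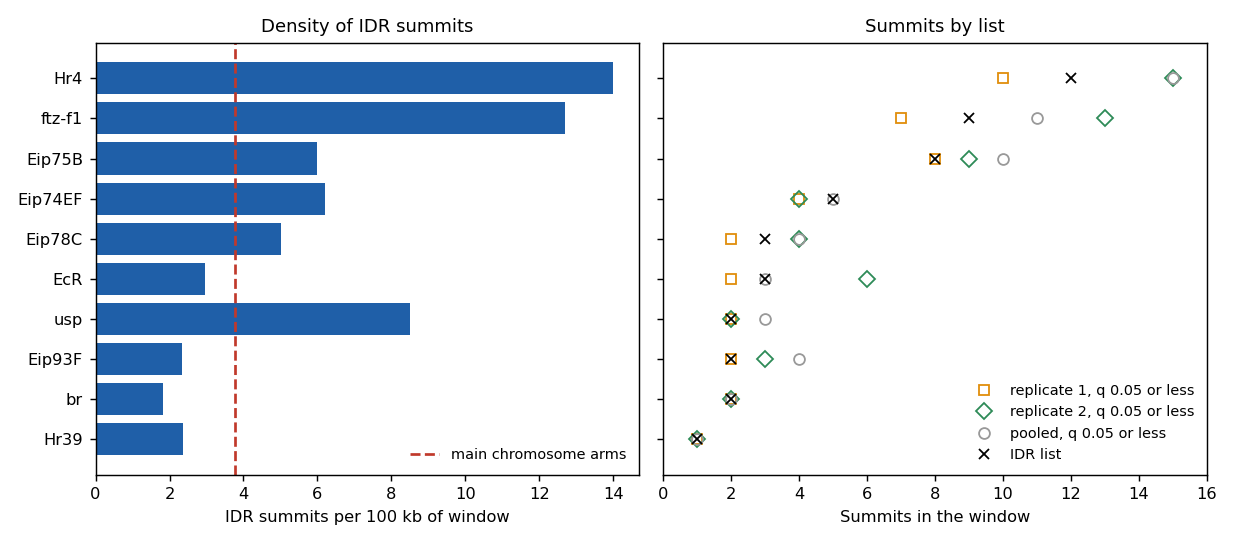
Left, IDR summits per 100 kb of window for each gene (x axis), with the density over the main arms as a dashed line. Right, the number of summits in each window (x axis) in the IDR list and, at a q-value of 0.05 or less, in the replicate 1, replicate 2 and pooled lists. Hr4 at 14 and ftz-f1 at 12.7 per 100 kb lie highest and br at 1.82 lowest.

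By density the order was Hr4 (14 per 100 kb), ftz-f1 (12.7), usp (8.51), Eip74EF (6.2), Eip75B (5.98), Eip78C (5.01), EcR (2.96), Hr39 (2.36), Eip93F (2.34) and br (1.82). The last 4 are below the 3.76 of the main arms. Most of these values rest on 5 summits or fewer, so neighbours in this order are not separated by the counting of summits. By count, among the 5033 strongest peaks of a replicate, Hr4 had the most in both, with 12 in replicate 1 and 11 in replicate 2. In the same lists ftz-f1 had 8 in replicate 1 and 9 in replicate 2, and Eip75B had 10 in replicate 1 and 6 in replicate 2.

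Most of these summits had a summit close by in the list of each replicate. Of the 47 summits, 46 had a replicate 1 summit within 100 bp, 43 had a replicate 2 summit and 42 had both (89.4%, 95% Wilson interval 77.4 to 95.4%), beside 92.1% of all IDR summits. The IDR list was made from these replicates, so these shares describe the list and are no independent check. The median offset of the partner was 8.5 bp in replicate 1 and 13 bp in replicate 2. Of the 5 without a partner in 1 replicate, 3 were at neighbouring promoters, those of Vps60, Mitofilin and PIG-K, and 2 were intronic, in Eip74EF (rank 4515) and ftz-f1 (rank 3759). Ranks were better in replicate 1 for 17 of the 42 and in replicate 2 for 25, and both ranks were within the 5033 strongest for 32. The widest gap was at the ftz-f1 summit of rank 3424, with rank 20044 in replicate 1 and rank 3378 in replicate 2. With replicate peaks at a q-value of 0.05 or less, 33 of the 47 had a partner in both. With a peak overlap of at least 50% of both peaks in place of the 100 bp, it was 31. No share of all IDR summits was taken for the counts of 32, 33 and 31. Whether they differ from the rest of the list was therefore not examined.

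**Figure D3:**
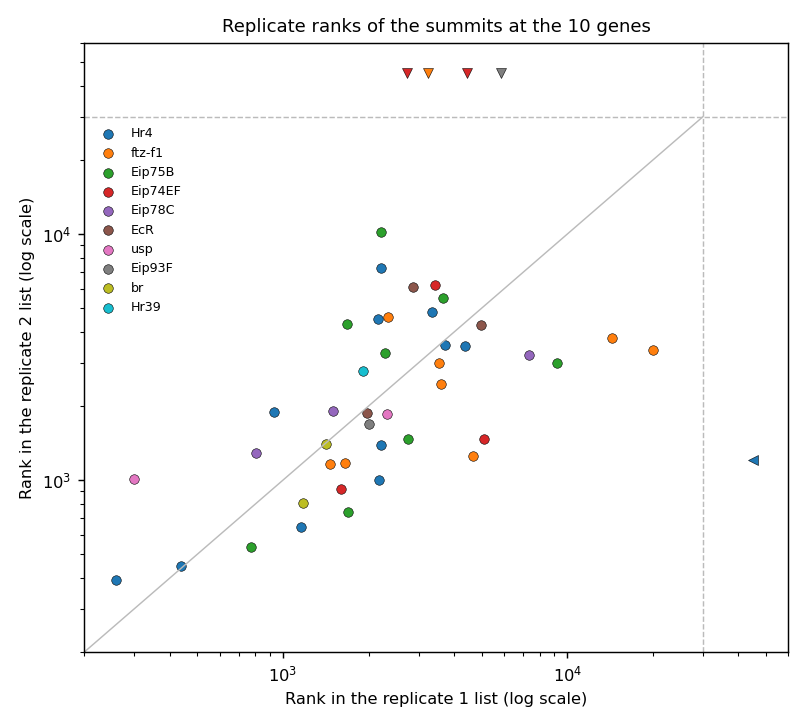
Rank of each summit in the replicate 1 list (x axis, log scale) against its rank in the replicate 2 list (y axis, log scale), coloured by gene. Triangles beyond the dashed lines are the 5 summits with no partner in 1 list, and the diagonal marks equal ranks. The summits of ranks 356 and 437 at Hr4 sit at the lower left, near the diagonal.

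By strength the 47 summits resembled the IDR list as a whole, with a median rank of 2174 beside 2517. Among the 500 strongest were 2 of the 47, both at Hr4 (4.26%, 1.18 to 14.2%), beside 9.93% of all IDR summits. Among the 1000 strongest were 7 (14.9%, 7.41 to 27.7%), beside 19.9%, and both intervals cover the share of all IDR summits. Those 7 were the summits at Hr4 (ranks 356, 437 and 788), Eip75B (594 and 954), moody (637) and br (891). The summits at own promoters had ranks of 594 to 4021, those in introns a median rank of 2814, and those at neighbouring promoters a median rank of 1654. No test was made of these differences, and the signal value is no measure of occupancy per cell.

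The pooled list at a q-value of 0.05 or less held 58 summits in the windows, 11 of which had no IDR summit within 100 bp. Of these 11, 3 lay within 500 bp of an IDR summit. The strongest of the 11 were at ftz-f1 (rank 5194, in an intron), Eip93F (rank 5205, between genes and 7540 bp upstream) and Hr4 (rank 5281, in an intron). The replicates differed in how many peaks reached that q-value in the windows, with 40 in replicate 1 and 59 in replicate 2, where the whole lists held 4333 and 8557 such peaks. The part of depth in that gap was not tested.

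A form of the Abd-B motif, TTTATTG or TTTATGG on either strand, was found within 100 bp of 14 of the 47 summits (29.8%, 18.7 to 44%), beside 19.2% of all IDR summits, which is inside the interval. These 14 were spread over 7 genes, with 4 at ftz-f1, 3 at Hr4, 2 each at Eip74EF and br and 1 each at EcR, Eip78C and Hr39. By kind of place, 8 of 34 intronic summits had the motif, 2 of 4 at own promoters and 4 of 9 at neighbouring promoters, beside 20.3% of all intronic and 17.6% of all promoter IDR summits. The 2 own promoters were those of EcR and Hr39. Within 50 bp of the summit 3 of the 47 had it (6.38%, 2.19 to 17.2%), beside 10.2% of all IDR summits. The direction of the difference is thus turned at 50 bp. Within 200 bp 16 had it (34.0%, 22.2 to 48.3%), beside 30.9% of all IDR summits. TAATTA was found at 9 summits (19.1%, 10.4 to 32.5%), beside 19.5% of all IDR summits, and 4 summits held both kinds of word (8.51%), beside 3.81%.

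The nuclear receptor core site AGGTCA, which lies inside AAGGTCA, was found at 4 summits, of EcR, Eip74EF, ftz-f1 and Hr4 (8.51%, 3.36 to 19.9%), beside 4.03% of all IDR summits, and AAGGTCA at 1, beside 1.43%. The GAGA factor word GAGAG was found at 12 summits (25.5%, 15.3 to 39.5%), beside 20.1%, and CAGGTA at 3 (6.38%, 2.19 to 17.2%), beside 3.7%. Of the words of housekeeping promoters, CGATA, bound by BEAF-32, was found at 11 (23.4%, 13.6 to 37.2%), beside 29.9%. TATCGATA, bound by DREF, contains CGATA and was found at 1, the CG3740 promoter, beside 4.09%. GGTCACAC, Motif 1, was found at none (upper limit 7.56%), beside 2.64%. Each of the shares of all IDR summits is inside the interval for the 47. The GC content of the 201 bases was 37.5% ± 8.78 (SD over 47 summits), beside 34.9% ± 7.25 over all IDR summits, and ran from 20.9 to 54.7%.

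**Figure D4:**
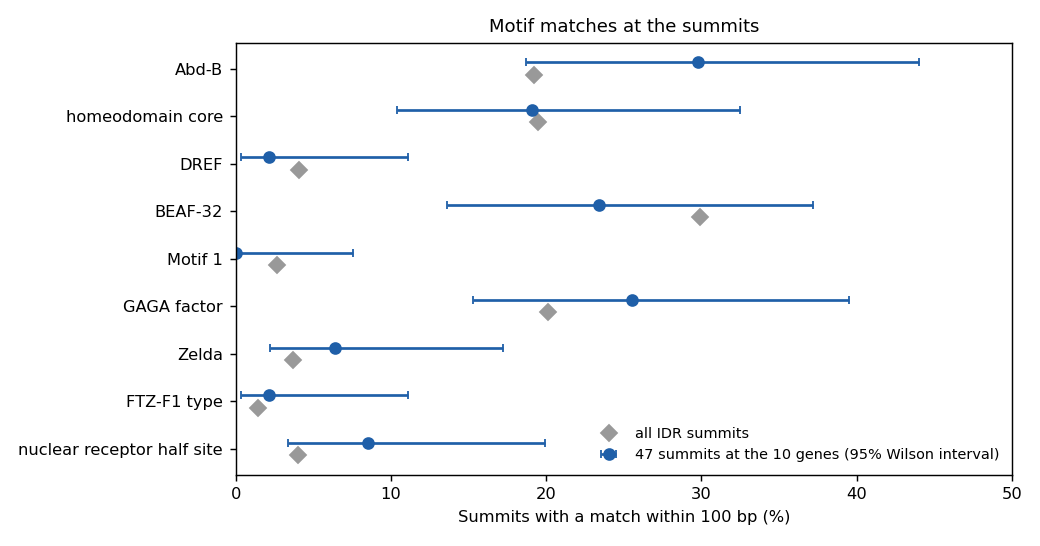
Share of summits with each motif within 100 bp (x axis, percent) for the 47 summits at the 10 genes (circles, with 95% Wilson intervals) and for all IDR summits (diamonds). All diamonds lie within the intervals.

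Other genes of hormone signalling give the setting. A promoter summit, within 1 kb of a TSS, was present at 6 of 14 other nuclear receptor genes (42.9%, 21.4 to 67.4%), and 11 had a summit in the window. In the window the best was rank 80, for Hr3, which had no promoter summit. The best ranked promoter summits were at ERR (rank 421), the gene of the oestrogen-related receptor of energy metabolism, Hr96 (rank 534), a receptor of lipid homeostasis, and Hnf4 (rank 771), another receptor of lipid metabolism. For svp, tll and kni, which encode developmental regulators, no IDR summit lay in the window. Of 18 genes of ecdysone synthesis and transport 4 had a promoter summit (22.2%, 9 to 45.2%) and 14 one in the window. E23, the gene of an ABC transporter that lowers the ecdysone response, had the best promoter summit (rank 104), followed by ecd (rank 841) and mld (rank 1628), which encodes a zinc finger protein of the hormone-making gland. In the window the best was rank 99, for ecd, more than 1 kb from any ecd TSS.

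Of 16 other ecdysone inducible genes 3 had a promoter summit (18.8%, 6.59 to 43%) and 13 one in the window. The promoter summits were at Ldh, the lactate dehydrogenase gene (rank 286), Eip63F-1 (rank 1622), which encodes a calcium-binding protein, and Eip63E (rank 4405), which encodes a cyclin-dependent kinase. Of 7 genes of receptor cofactors and juvenile hormone receptors 3 had a promoter summit (42.9%, 15.8 to 75%) and all 7 one in the window. The promoter summits were at gce (rank 103), which encodes a juvenile hormone receptor, tai (rank 1568), the gene of a coactivator of EcR, and rig (rank 3954), whose protein interacts with nuclear receptors. In the window the best were rank 101, for ImpL2 among the inducible genes, and rank 9, for Smr among the cofactors. Neither ImpL2 nor Smr had a promoter summit. The nearest TSS of any gene is not given for the window summits of the 4 lists, so they are not assigned to a gene. Each list is small, and each interval of a promoter share covers the 25.0% of all protein-coding genes. In the window, 64.8% of all protein-coding genes had a summit. The window intervals of the 4 lists, in the order given, were 52.4 to 92.4%, 54.8 to 91%, 57 to 93.4% and 64.6 to 100%. Each covers 64.8%.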

How the data were processed

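The authors deposited narrowPeak lists on dm6 for each of 2 replicates, for both pooled and for the optimal IDR selection (build per the deposited text descriptions). Each list gives the authors' signal value per peak, an enrichment measure of unstated scale used here mainly for ranks, and a −log10 q-value, per the deposited format. The sources used here name neither aligner nor peak caller. Sonicated fragments were 200 to 800 bp, per the labels. The authors' IDR signal values ran from 152.7 to 5202 and their −log10 q from 2.025 to 3.82. The lists hold no reads, so depth is unknown. Each IDR peak had the same rank in the pooled list. Signal tracks and control values were not used here.

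Ranks go by signal value, with ties broken by q-value and position. Genes and transcripts are those of Ensembl release 115 and bases those of the RefSeq genome (dm6 coordinates), and each peak on the main arms fitted inside its arm. 1 peak each of the replicate 2 and pooled lists lies outside these arms and was left out. TSSs of a gene within 100 bp of each other were merged, and partners were summits within 100 bp. Classes were promoter (500 bp of any TSS), UTR, coding sequence, intron and intergenic. Motifs had to lie wholly within 100 bp of the summit. With 1 group, no test was made. Wilson intervals are 95% and cover the counting of summits or genes only. The 4 further gene lists are of textbook genes, and 5 symbols were matched through older names. Named genes were the 10, the 3 best of each further list by promoter summit, and genes with a TSS nearer to a described summit. Such nearer genes were not named at every described summit. The transcripts named are those of the annotation, and svp, tll, kni, Hr3, Smr and ImpL2 were named after their values were seen. The members and lists were chosen with earlier results of these data known, and the limit of 50 kb for long windows was set after seeing the data. The position functions were tested on simulated data. Figures were drawn with matplotlib 3.10.9; the rest used pandas 2.3.3, scipy 1.17.1 and numpy 2.4.6 under Python 3.11.15.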

Additional observations from a re-analysis of the deposited data

How the results depend on the processing

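With the 1000 strongest IDR peaks, 4 of 10 genes had a summit in the window (26.3% of all protein-coding genes), 7 summits lay in the windows and 1 gene had a promoter summit (7.41% of all). With the 2500 strongest, 24 summits were left, at all 10 genes (47.9% of all). With the most upstream TSS only, 2 of 10 genes had a promoter summit, below the 23.2% of all genes. Within 50 bp of the summit, 3 summits had the Abd-B motif, beside 10.2% of all IDR summits. Within 200 bp it was 16 summits, beside 30.9%. The q limit of 0.01 removes no IDR peak. When the 5033 strongest peaks of 1 replicate stood in for the IDR list, all 10 genes had a summit in each. Of all protein-coding genes, 66.4% had one with replicate 1 and 64.3% with replicate 2. The windows then held 41 to 48 summits, and 4 to 5 genes had a promoter summit, beside 24.5 to 25.6% of all genes. Of the 33 promoters of the 10 genes, 5 to 6 carried one. The 4 further lists had 15 to 19 genes with a promoter summit. Read at the partner summits of 1 replicate, the median rank was 1900 to 2252.5, and 11 summits had the Abd-B motif in either. With the gene body alone as window, 9 genes had a summit, Hr39 being the exception, beside 11.4% of all genes. Without flanks this share depends on gene length, which differs between the sets. The median window with flanks was 83.1 kb for the 10 genes and 22.2 kb for all. No share of long genes was taken at this setting. Of the alternatives for single genes, 27 moved and 53 did not move by more than 1.5 times, and the cause was not tested, apart from the shorter lists and windows, which hold fewer summits by construction. No paired analysis was possible because there is 1 group.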
